A study of Mus musculus with 10 samples.

Results

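Palladin and 9 genes of the smooth muscle contractile apparatus were followed across 10 mouse tumors. The 10 genes are Palld, Acta2, Tagln, Myl9, Cnn1, Tpm1, Tpm2, Actg2, Lmod1 and Myh11, taken by symbol from a table of 36009 genes, and each symbol matched 1 row. They were chosen with values of the comparison between responders and non-responders already known, so their differences between those groups are given as a description, without a p-value. RNA was sequenced from subcutaneous CT26 tumors, grown from a mouse colorectal carcinoma line in female wild-type BALB/c mice. The RNA was that of the tissue taken out at surgery, which was untreated when collected. A hydrogel loaded with poly(I:C), a synthetic double-stranded RNA, was then placed on the tumor that remained, and the mice were followed. The 6 responders were mice whose tumors regressed completely, and the 4 non-responders were mice whose tumors grew with no delay. All 10 tumors therefore share strain, line, site and lack of treatment, and differ in the later outcome, which the labels give. Total estimated counts were 23374649 to 38042544 per tumor, and at least 29065126 in responders. In non-responders 1 to 4 they were 24753763, 26563619, 23374649 and 32986456. Non-responders 1 to 3 were thus shallower than every responder. The deepest and the shallowest library of the non-responders were non-responder 4 and non-responder 3.

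Palladin is a scaffold protein of actin bundles, stress fibers and focal adhesions, made by cultured fibroblasts, smooth muscle, striated muscle and many tumor cells. Smooth muscle cells contract by sliding smooth muscle myosin (Myh11 heavy chain, Myl9 regulatory light chain) along filaments of the alpha and gamma smooth muscle actins (Acta2, Actg2), which carry tropomyosin (Tpm1, Tpm2) and calponin (Cnn1). Tagln (transgelin) binds those filaments and Lmod1 (leiomodin) nucleates them. In tumors Acta2 and Tagln are also known from activated fibroblasts, and Acta2 from pericytes, while Tpm1 and Tpm2 serve in nonmuscle and skeletal muscle cells as well. These are bulk tissue libraries, in which fewer cells of a type and less RNA per cell cannot be told apart.

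Levels are in CPM, the usual scale that divides the count of a gene by the total of the library, here with the edgeR adjustment of totals (TMM). To compare genes with each other, CPM was divided by the length of the merged exons of the gene in kb. On this scale of level per length, Tpm1 was the highest of the 10 genes, at a mean of 76.7 CPM per kb over the 10 tumors. Tpm2 followed at 27.0, Acta2 at 15.4, Palld at 4.94, Tagln at 2.17 and Myl9 at 1.23 CPM per kb. Myh11 stood at 0.523, Lmod1 at 0.122, Actg2 at 0.118 and Cnn1 at 0.0352 CPM per kb. Tpm1 alone made up 50.6% to 70.0% of the summed level per length of the 10 genes in a tumor, and Cnn1 at most 0.0514%.

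**Figure D1:**
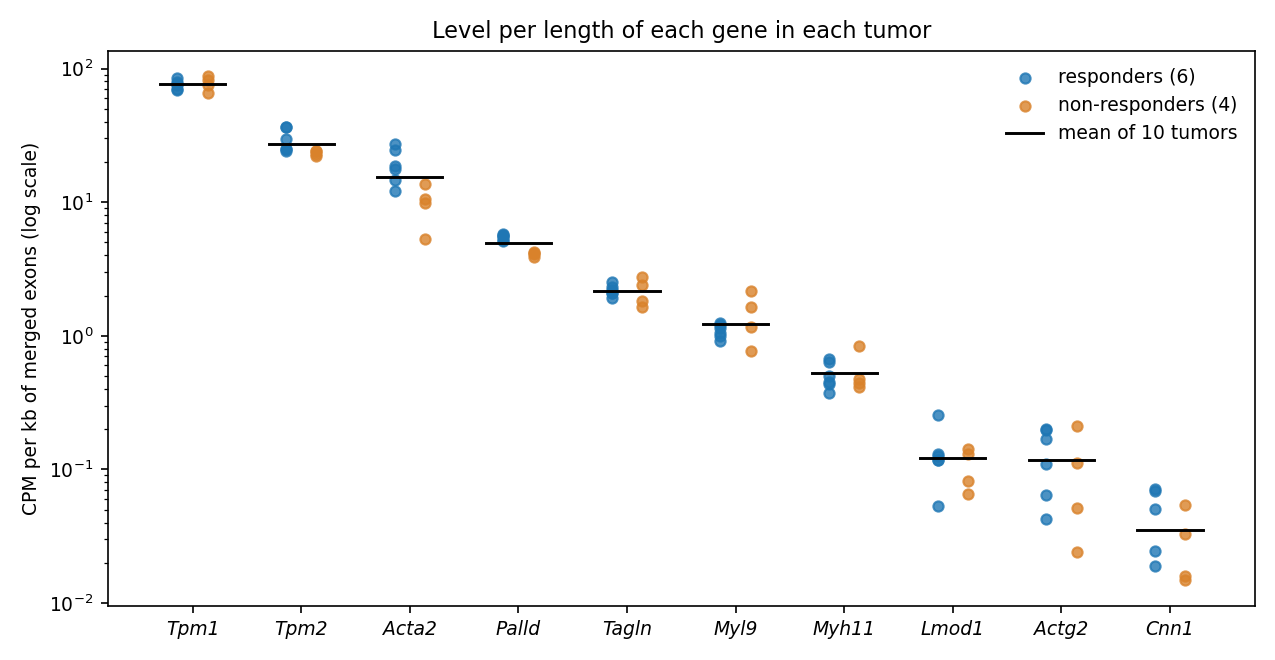
Level of each gene in each tumor, in CPM per kb of merged exons on a log axis, with responders and non-responders as separate points and the mean of 10 tumors as a line; the 0 value of Cnn1 in responder 4 is not drawn. The means run from 76.7 for Tpm1 down to 0.0352 for Cnn1.

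Some neighbors in this order kept apart in every tumor and others did not. The ranges over tumors did not overlap between Tpm1 and Tpm2, between Palld and Tagln, or between Myh11 and Lmod1. Tpm2 exceeded Acta2 in 9 of 10 tumors, with overlapping ranges of 22.2 to 36.7 and 5.27 to 27.1 CPM per kb. Lmod1 exceeded Actg2 in 6 of 10 tumors, so these 2 genes did not differ beyond their spread, and with the longest transcript as the length their order turned. As the plot of level per length shows, the markers of mature smooth muscle (Myh11, Lmod1, Actg2, Cnn1) were the 4 lowest of the 10 genes.

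The comparison between responders and non-responders asks which RNA levels in the untreated tumor differ with the later outcome. A quasi-likelihood test (edgeR) was fitted to all 16041 genes that passed a filter on low counts, and 8 of the 10 genes were among them. Actg2 and Cnn1 did not pass the filter. Of the 8, Palld was past an adjusted p of 0.05, with a higher level in responders, which is 12.5% of those fitted. Over all genes 8.06% were past it in either direction, 4.71% higher and 3.35% lower in responders. Palld and Tpm2 were the 2 of the 8 in which every responder exceeded every non-responder, an arrangement found in 5.84% of all genes fitted. Since the genes were selected on this contrast, nothing is read from these shares. The log2 fold change was positive in 5 of the 8 genes and negative in 3, with a median of 0.17 beside -0.01 for all genes fitted.

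**Figure D2:**
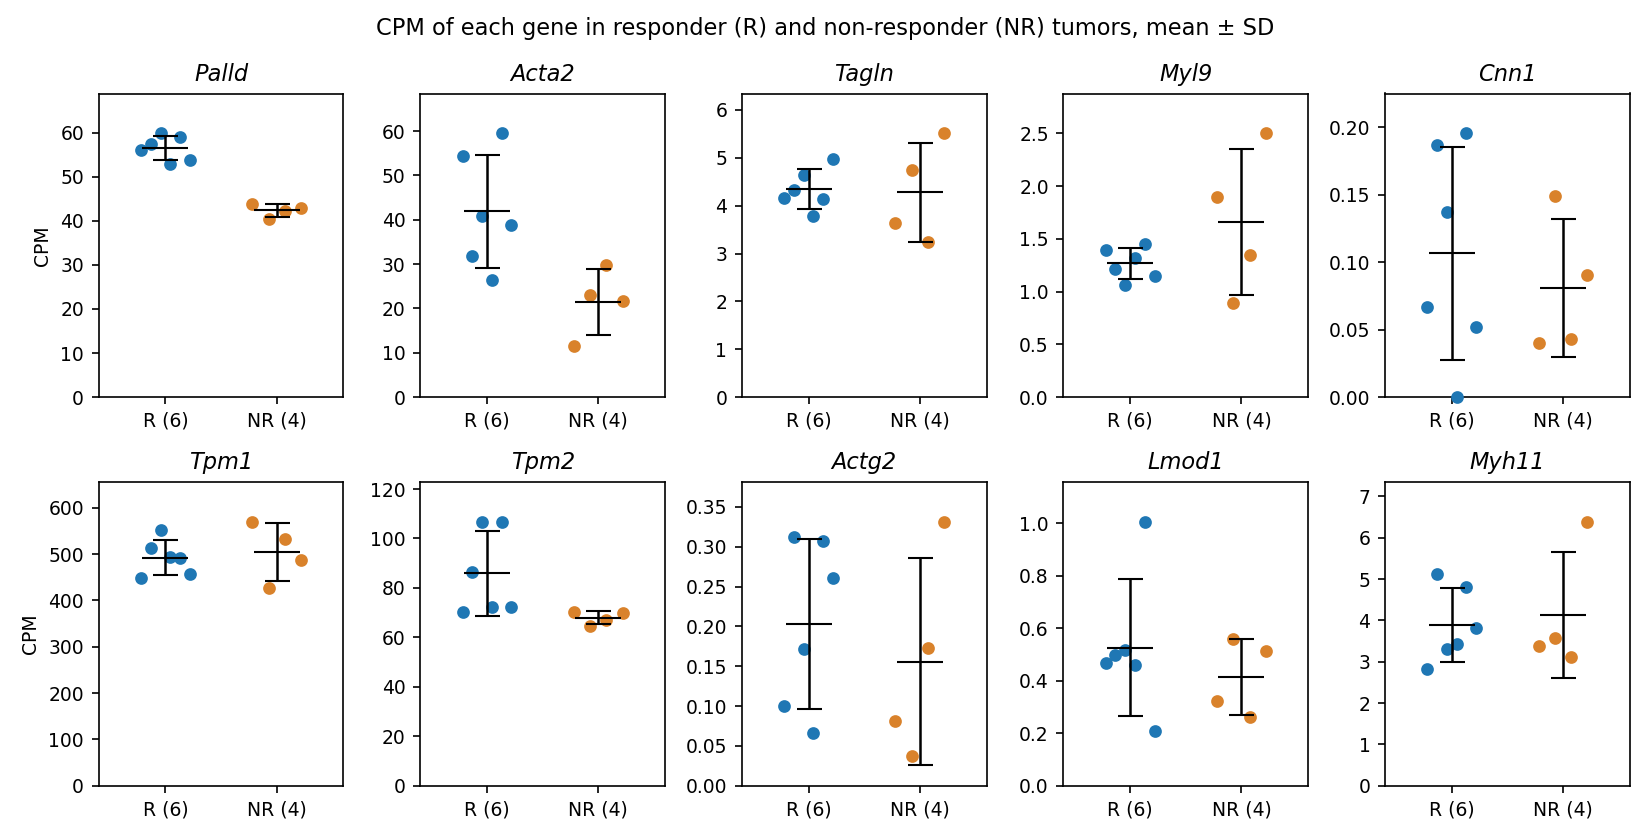
CPM of each of the 10 genes in each tumor, in 1 panel per gene with its own axis from 0; points are tumors, and the line and bars are the mean ± SD of 6 responders (R) or 4 non-responders (NR). Palld separates the groups with little spread, Acta2 varies widely within both, and the remaining genes other than Tpm2 overlap.

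Palld (ENSMUSG00000058056) lies on chr8:61511433-61902690 of GRCm38, minus strand, with 9 annotated transcripts. In responders its level was 52.9 CPM at the lowest, 56.7 at the median and 59.9 at the highest. In non-responders 1 to 4 it was 43.9, 40.3, 42.3 and 43.0 CPM. The highest non-responder was thus well under the lowest responder. Means were 56.5 ± 2.80 (SD, n = 6) and 42.4 ± 1.50 CPM (SD, n = 4), a 1.33-fold difference, or 0.41 ± 0.05 (SE) as a log2 fold change. Within a group Palld varied little. The within-group SD of its log2 CPM was 0.0649, at percentile 19.4 of the 10094 genes with at least 10 CPM, whose median was 0.0966. Estimated counts of 976 to 2107 stood behind these values. When non-responder 4 was left out, the log2 fold change of Palld was 0.42 and no gene of the whole table, Palld included, was past an adjusted p of 0.05. The counts are per gene, so the isoforms of palladin, which differ in the number of immunoglobulin domains, were not separated.

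Acta2 (ENSMUSG00000035783), alpha smooth muscle actin, lies on chr19:34241090-34255590, minus strand. Its level in responders 1 to 6 was 54.3, 31.9, 40.8, 26.5, 59.6 and 38.7 CPM. In non-responders 1 to 4 it was 11.6, 23.0, 29.8 and 21.6 CPM. The groups overlapped through responder 4, which was below non-responder 3, while the other 5 responders exceeded all non-responders. Means were 42.0 ± 12.8 (SD, n = 6) and 21.5 ± 7.51 CPM (SD, n = 4), and the log2 fold change was 0.97 ± 0.27 (SE). This was the largest fold change of the 8 genes. Among the 4 of them with at least 10 CPM (Palld, Acta2, Tpm1 and Tpm2) it also came with the widest spread: the within-group SD of log2 CPM was 0.497, at percentile 98.1 of the genes with at least 10 CPM. Acta2 was not past an adjusted p of 0.05 in the edgeR fit, and it was without responder 4, with a log2 fold change of 1.08.

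The actins are nearly identical proteins, so whether reads of Acta2 can be told from those of skeletal muscle actin (Acta1), which averaged 137 ± 14.6 CPM among the non-responders (SD, n = 4) and 278 ± 108 CPM among the responders (SD, n = 6), bears on its values. The last 60 coding bases of the mouse reference (GRCm38, all on the minus strand) are shown because the 4 muscle actins can be compared there base by base, with capitals marking bases that differ from Acta2.
Acta2, chr19:34241667-34241726: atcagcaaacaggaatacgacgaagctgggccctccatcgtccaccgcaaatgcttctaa
Acta1, chr8:123892009-123892068: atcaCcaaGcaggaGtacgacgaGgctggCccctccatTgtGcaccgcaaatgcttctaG
Actc1, chr2:114047466-114047525: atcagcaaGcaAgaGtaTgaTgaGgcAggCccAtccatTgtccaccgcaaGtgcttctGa
Actg2, chr6:83512985-83513044: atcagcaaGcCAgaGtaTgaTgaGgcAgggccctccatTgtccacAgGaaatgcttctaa
Acta1 differed from Acta2 at 8 of the 60 bases, Actc1 at 12 and Actg2 at 11. Over the 1134 coding bases, 85.4% were identical between Acta2 and Acta1. No 31-base word of Acta2 transcripts occurred in Acta1, Actc1 or Actg2. Of its 2165 such words 26 occurred in Actg1 and 17 in Actb, the nonmuscle actins, and 1.39% occurred in any other annotated gene. Tpm1 and Tpm2 shared 9 words with each other, and 0.039% of the words of Palld were shared with another gene.

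Tpm2 (ENSMUSG00000028464), beta tropomyosin, lies on chr4:43514711-43523765, minus strand. In responders 1 to 6 it was 70.2, 86.5, 107, 72.4, 107 and 72.3 CPM. In non-responders 1 to 4 it was 70.1, 64.5, 67.0 and 69.8 CPM. All responders were above all non-responders, but responder 1 exceeded non-responder 1 by only the margin between 70.2 and 70.1 CPM. Responders 2, 3 and 5 carried the difference, and the other 3 responders lay close to the non-responders. Means were 85.8 ± 17.3 (SD, n = 6) and 67.8 ± 2.61 CPM (SD, n = 4). The log2 fold change was 0.34 ± 0.13 (SE), and the gene was not past an adjusted p of 0.05.

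Tpm1 (ENSMUSG00000032366, chr9:67022590-67049406, minus strand, 21 annotated transcripts), alpha tropomyosin, ran from 449 CPM through a median of 493 to 552 in responders. In non-responders 1 to 4 it was 570.3, 427, 534 and 488 CPM. The groups overlapped over nearly their whole range, with a log2 fold change of -0.03 ± 0.08 (SE). The same family thus held a gene whose groups did not overlap, Tpm2, and one whose groups did, Tpm1; the difference between their fold changes was not tested.

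The remaining genes are those most tied to differentiated smooth muscle. Tagln (ENSMUSG00000032085, chr9:45929619-45936058, minus strand) ran from 3.79 through a median of 4.25 to 4.98 CPM in responders and was 3.63, 4.74, 3.25 and 5.52 CPM in non-responders 1 to 4. Its log2 fold change was 0.01 ± 0.15 (SE), and non-responders held both its highest and its lowest tumor. Of its 1988 exon bases, 1241 overlap the antisense gene Gm48529 and 108 overlap Pcsk7 on the opposite strand. Pcsk7 was at 39.9 to 45.1 CPM across the tumors, well above Tagln. Whether counting used strand is not given in the sources used here, so reads of these genes may not be separable.

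Myh11 (ENSMUSG00000018830, chr16:14194535-14291372, minus strand) ran from 2.83 through a median of 3.62 to 5.12 CPM in responders and was 3.39, 3.58, 3.12 and 6.39 CPM in non-responders 1 to 4. Its log2 fold change was -0.09 ± 0.23 (SE), and without non-responder 4 it was 0.21. Myl9 (ENSMUSG00000067818, chr2:156775420-156781658, plus strand) ran from 1.07 through a median of 1.27 to 1.45 CPM in responders and was 1.90, 0.895, 1.34 and 2.50 CPM in non-responders 1 to 4. The responders lay inside the range of the non-responders, and the log2 fold change was -0.40 ± 0.25 (SE), or -0.12 without non-responder 4.

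Lmod1, Actg2 and Cnn1 were near the limit of detection at this depth, where 3 counts correspond to 0.0782 to 0.13 CPM depending on the library. Lmod1 (ENSMUSG00000048096, chr1:135324807-135368065, plus strand) had 6 to 36 estimated counts per tumor and a log2 fold change of 0.32 ± 0.39 (SE), which was 0.01 without responder 5, its highest tumor. Actg2 (ENSMUSG00000059430, chr6:83512905-83536265, minus strand) had 1 to 11 counts and Cnn1 (ENSMUSG00000001349, chr9:22099216-22109630, plus strand) 0 to 7. A difference between groups in Actg2 and Cnn1 was not detectable at this depth, and no fold is given for them.

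Non-responder 4 was the highest tumor for Tagln, Myl9, Actg2 and Myh11. Responder 5 was the highest for Acta2, Tpm2, Lmod1 and Cnn1, and non-responder 2 the lowest for 5 of the 10 genes. The highest tumor therefore differed between genes of the same apparatus.

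Other genes of the pathway were counted from 4 lists, which were also drawn up with earlier results of these data known. Among 19 smooth muscle contractile genes beyond the 10, 18 were fitted, 6 rose in responders and 0 fell at an adjusted p under 0.05 (edgeR), with a median log2 fold change of 0.52. At an unadjusted p under 0.05, 10 were higher and 2 lower, and DESeq2 called 8 higher and 2 lower. For this and the lists below, the background was 4666 of all 16041 genes at an unadjusted p under 0.05 in either direction. DESeq2 called 1543 higher and 1059 lower of 14794 genes. Those 6 are 33.3% of the genes fitted, beside 4.71% of all genes. The 3 with the largest fold changes act at the sarcomere and membrane junctions of striated muscle too. Jph2, junctophilin, which joins the plasma membrane to the sarcoplasmic reticulum, had a log2 fold change of 1.45 ± 0.35 (SE, adjusted p = 0.0365). Ldb3, a Z-disc protein, stood at 1.36 ± 0.31 (SE, adjusted p = 0.0331) and Des, desmin, the muscle intermediate filament, at 1.04 ± 0.27 (SE, adjusted p = 0.0440).

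Des was 37.4, 73.2, 63.5 and 45.5 CPM in non-responders 1 to 4 and 63.5 to 152 CPM in responders, with a median of 117, so that non-responder 2 lay above the lowest responder. Synpo2, an actin bundler of the Z-disc, rose by 0.68 ± 0.18 on the log2 scale (SE, adjusted p = 0.0432). Hspb6, a small heat shock protein of muscle, rose by 0.60 ± 0.15 (SE, adjusted p = 0.0378). Csrp1, a LIM protein of smooth muscle and fibroblasts, rose by 0.30 ± 0.07 (SE, adjusted p = 0.0329), from 75.7 ± 5.13 CPM (SD, n = 4) in non-responders to 93.2 ± 7.92 (SD, n = 6) in responders. Smtn, smoothelin, and Ppp1r12b, a myosin phosphatase subunit, are with Des the most abundant of the list and did not pass the test, with log2 fold changes of -0.13 ± 0.11 (adjusted p = 0.475) and 0.19 ± 0.05 (SE, adjusted p = 0.0511). Kcnmb1, a potassium channel subunit of smooth muscle, did not pass the filter.

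The 17 nonmuscle actin and myosin genes had 18 identifiers because Myl12b has 2 overlapping ones. Of these, 2 rose and 0 fell (edgeR), with a median log2 fold change of 0.08. Those 2 are 11.1% of the identifiers fitted, beside 4.71% of all genes. At an unadjusted p under 0.05, 3 were higher and 0 lower, and DESeq2 called 2 and 0. Myh10, nonmuscle myosin IIB, rose by 0.82 ± 0.20 on the log2 scale (SE, edgeR adjusted p = 0.0389). It was 5.57, 11.6, 12.4 and 6.63 CPM in non-responders 1 to 4 and 14.1 to 17.7 CPM in responders, with no overlap. Cnn2, the calponin of nonmuscle cells, rose by 0.25 ± 0.06 (SE, edgeR adjusted p = 0.0413). The most abundant genes of this list, Actb, Actg1 and Flna, had log2 fold changes of 0.15 ± 0.09, 0.09 ± 0.08 and -0.09 ± 0.05 (SE) and did not pass (adjusted p = 0.291, 0.436 and 0.286).

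Among 12 genes of the palladin family and of proteins that bind palladin, 0 rose and 1 fell (edgeR), with a median log2 fold change of -0.03. Of all genes fitted, 4.71% rose and 3.35% fell. At an unadjusted p under 0.05, 1 was higher and 3 lower, and DESeq2 called 1 and 1. Src, a tyrosine kinase that palladin binds, fell by 0.20 ± 0.05 on the log2 scale (SE, edgeR adjusted p = 0.0445). The most abundant of the list, Actn4, Pfn1 and Eps8, stood at -0.07 ± 0.06, 0.14 ± 0.07 and -0.29 ± 0.10 (SE, adjusted p = 0.483, 0.200 and 0.0938). Of 12 genes around SRF, the factor that drives many contractile genes, 0 rose and 0 fell (edgeR), with a median of 0.14. At an unadjusted p under 0.05, 3 were higher and 0 lower, and DESeq2 called the same numbers. Its most abundant genes, Egr1, Junb and Ankrd1, had log2 fold changes of -0.36 ± 0.27, 0.47 ± 0.28 and 0.13 ± 0.07 (SE, adjusted p = 0.399, 0.290 and 0.209).

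Over the 4 lists together 8 of 60 identifiers rose, 13.3%, and 1 fell, where 4.71% of all genes rose and 3.35% fell. The calls in these lists, 9 with all tumors, changed in number when some single tumors were left out. They numbered 0 without responder 2, responder 3, non-responder 1 or non-responder 4, 1 without responder 5, 3 without non-responder 3, 4 without responder 1 and 5 without responder 6. In the 4 edgeR fits that called 0, 21 or 22 of the 60 or 61 listed identifiers had an unadjusted p under 0.05. Among all genes this held for 4128 of 15925 without responder 2 and 4051 of 15962 without responder 3. It held for 3654 of 16285 without non-responder 1 and 4106 of 16239 without non-responder 4. DESeq2 with all tumors called 14 higher and 3 lower.

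**Figure D3:**
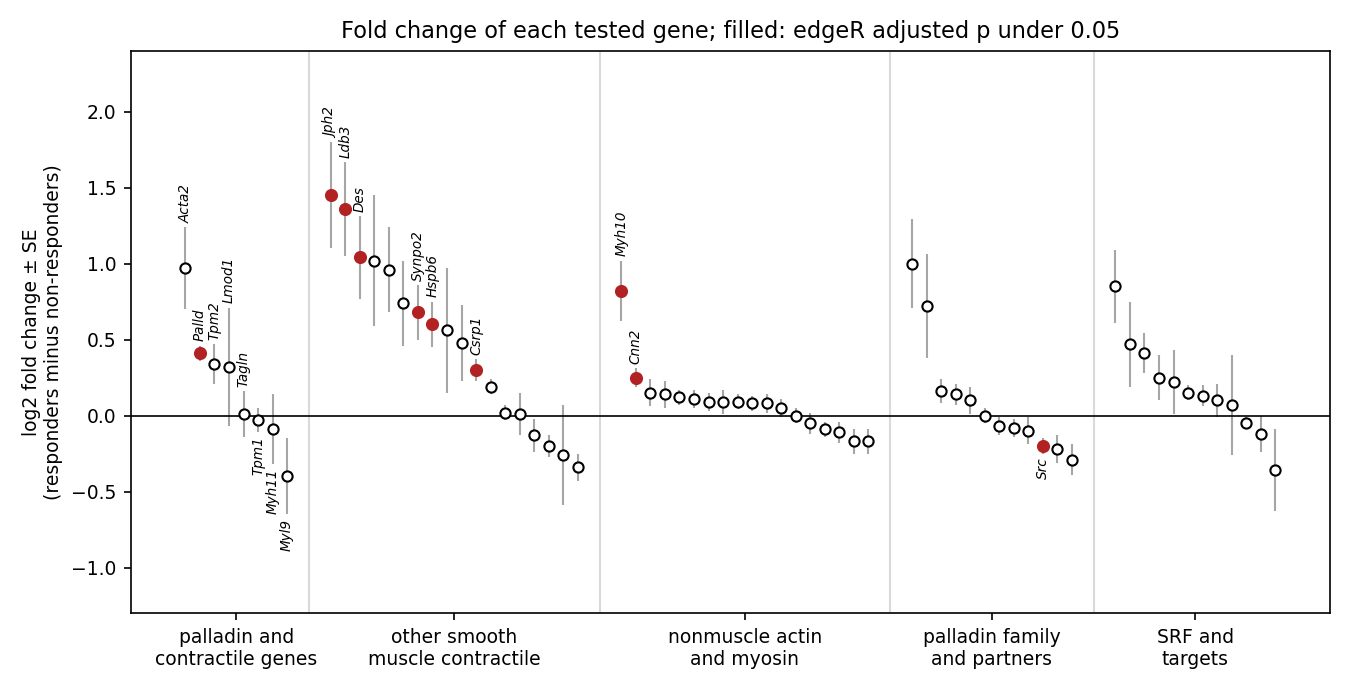
Log2 fold change ± SE, responders minus non-responders, of the 8 fitted genes of the set and of every fitted gene of the 4 pathway lists, with edgeR adjusted p under 0.05 as filled points. Filled points stand among smooth muscle contractile genes (6), nonmuscle actin and myosin genes (2), palladin partners (1, below 0) and at Palld.

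Markers of the cells that could carry these RNAs were summed in each tumor. Skeletal muscle markers were higher in responders, at 657 to 1865 summed CPM beside 502 to 683, with positive fold changes in 14 of 14 genes and 3 past the test. The 3 are Acta1, skeletal muscle actin (1.02 ± 0.25, adjusted p = 0.0391), Myh1, a fast myosin (1.05 ± 0.24, adjusted p = 0.0329), and Ckm, muscle creatine kinase (1.33 ± 0.36, adjusted p = 0.0464), each as a log2 fold change with SE from the same edgeR fit. Leukocyte markers summed to 2502 to 3547 CPM in responders and 1737 to 2231 in non-responders. Of the 7 fitted genes 4 were past the test (Ptprc, Adgre1, Itgam and Lyz2), all higher in responders. The share past the test and higher was 21.4% of skeletal muscle and 57.1% of leukocyte markers fitted, beside 4.71% of all genes. At an unadjusted p under 0.05, 13 skeletal muscle and 7 leukocyte markers were higher and 0 lower. DESeq2 called 10 skeletal muscle and 7 leukocyte markers higher and 0 lower.

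Pericyte and mural cell markers were mixed, with positive fold changes in 5 of 12 fitted genes and negative ones in 7, and a median log2 fold change of -0.14. Their sum was 252 to 322 CPM in responders and 344 to 463 in non-responders, and most of it was Pdgfrb, at means of 211 and 315 CPM. Of the 12, 2 fell, where 3.35% of all genes fell. Pdgfrb, the receptor that marks pericytes and fibroblasts, fell by 0.58 ± 0.12 (SE, edgeR adjusted p = 0.0266). Heyl, a Notch target, fell by 1.09 ± 0.29 (SE, edgeR adjusted p = 0.0461). Of the mural cell markers 2 were higher and 3 lower at an unadjusted p under 0.05, and DESeq2 called 0 and 3. Those with the highest positive values, Cox4i2, Cspg4 and Abcc9, stood at 0.74 ± 0.36, 0.51 ± 0.20 and 0.39 ± 0.16 (SE) and did not pass (edgeR adjusted p = 0.199, 0.126 and 0.124).

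Fibroblast markers overlapped between groups as a sum, at 5800 to 6914 CPM in responders and 4966 to 7999 in non-responders. Of the 14, 6 had positive and 8 negative fold changes, with a median of -0.02 on the log2 scale. Fap and Postn, genes of activated fibroblasts, fell by 0.78 ± 0.11 and 0.77 ± 0.16 (SE, edgeR adjusted p = 0.0207 and 0.0286). They were the only 2 of the 14 past the test, where 3.35% of all genes fell. Thy1 and Pi16 stood at 0.45 ± 0.16 and 0.43 ± 0.26 (SE) and did not pass (edgeR adjusted p = 0.0942 and 0.304). Of the fibroblast markers 1 was higher and 3 lower at an unadjusted p under 0.05, and DESeq2 called 1 and 2.

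The other lists had 0 genes past the edgeR test. At an unadjusted p under 0.05 they had 0 endothelial genes, 6 adipocyte genes higher and 3 intestinal epithelial genes lower in responders, and DESeq2 called 0, 6 and 1 of them. Fold changes were positive in 10 of 10 endothelial and 6 of 6 adipocyte genes fitted, and negative in 4 of 4 intestinal epithelial genes. Endothelial markers summed to 106 to 166 CPM in responders and 88.3 to 128 in non-responders, and adipocyte markers to 24.4 to 95.3 and 11.7 to 35.7. Intestinal epithelial markers, which bear on the colorectal origin of CT26 given in the labels, summed to 17.5 to 42.0 and 40.3 to 84.7 CPM. Of those 8 genes Epcam (3 to 19 counts), Krt8 (0 to 14), Vil1 (0 to 4) and Krt18 (0 to 3) did not pass the filter. Most of the sum was Krt20, an intestinal keratin, at means of 29.0 CPM in responders and 52.9 in non-responders, and Cdh1, E-cadherin, was at 4.15 and 5.99 CPM. The list thus held both markers near 0 and markers that were expressed. No listed marker was at 0 in all tumors. The part of these cell types in the values of palladin and the contractile genes was not tested.

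How the genes moved with each other and with these markers is described by Pearson's r and Spearman's rho of log2 CPM over the 10 tumors, whose points share library and depth. Palld and Tpm2 had r = 0.77 and rho = 0.94 over 10 tumors, r = 0.84 after the mean of each group was removed, and r = 0.89 over the 6 responders. Palld and Acta2 had r = 0.73 and rho = 0.77, r = 0.12 after the group means were removed, and r = 0.52 over the responders. With the mean of the 7 smooth muscle genes (Acta2, Tagln, Myl9, Cnn1, Actg2, Lmod1 and Myh11) Palld had r = 0.45 and rho = 0.54, r = 0.53 after the group means were removed and r = 0.78 over the responders. It was 0.68 without the 2 tumors farthest from the median of that mean, and 0.26 over all tumors when Acta2 was left out of it. The 21 pairs among the 7 genes had r from -0.37 (Acta2 and Myl9) to 0.70 (Actg2 and Myh11), with a median of 0.36, and 3 of the 21 were negative. Actg2, Cnn1 and Lmod1 enter these pairs, and the mean of the 7 genes, with few counts. Cnn1, at 0 to 7 counts, had r = 0.76 with that mean, which includes it, and 0.94 over the responders. Over the responders Palld had r = 0.89 with Cnn1, 0.65 with Lmod1 and 0.48 with Actg2. With Tagln, Myl9 and Myh11 it had r = 0.17, -0.12 and 0.28 there. Tpm1 ran with the fibroblast sum over all tumors (r = 0.79, rho = 0.59), but over the 6 responders r was 0.28 and rho -0.09. Without the 2 tumors farthest from the median of that sum r was 0.48.

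Palld and the summed skeletal muscle markers had r = 0.81 (rho = 0.81), 0.58 within groups and 0.84 over the 6 responders. Tpm2 and that sum had r = 0.91 (rho = 0.77), 0.85 within groups and 0.93 over the responders. Tpm2 also ran with skeletal muscle actin. Its r with Acta1 was 0.92 (rho = 0.84), 0.89 within groups and 0.95 over the 6 responders, and without the 2 tumors farthest from the median of Acta1 it was 0.76. Palld and Acta1 had r = 0.85 (rho = 0.85), 0.66 within groups and 0.89 over the responders. Acta2 ran with the pan-leukocyte gene Ptprc, with r = 0.92 (rho = 0.94) and 0.82 within groups and 0.76 over the responders. It did not run with Ptprc alone. With the skeletal muscle sum Acta2 had r = 0.74 (rho = 0.87), 0.43 within groups and 0.47 over the responders. With the endothelial sum it had r = 0.77 (rho = 0.71), 0.63 within groups and 0.81 over the responders. With the mural cell sum Acta2 had r = -0.59 (rho = -0.72), 0.12 within groups and -0.34 over the responders. With the fibroblast sum it had r = -0.27 (rho = -0.15), -0.16 within groups and 0.24 over the responders. Palld and Ptprc had r = 0.77 (rho = 0.85), 0.10 within groups and 0.76 over the responders. Palld and the mural cell sum, most of which is Pdgfrb, had r = -0.85 (rho = -0.81), -0.15 within groups and -0.49 over the responders.

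**Figure D4:**
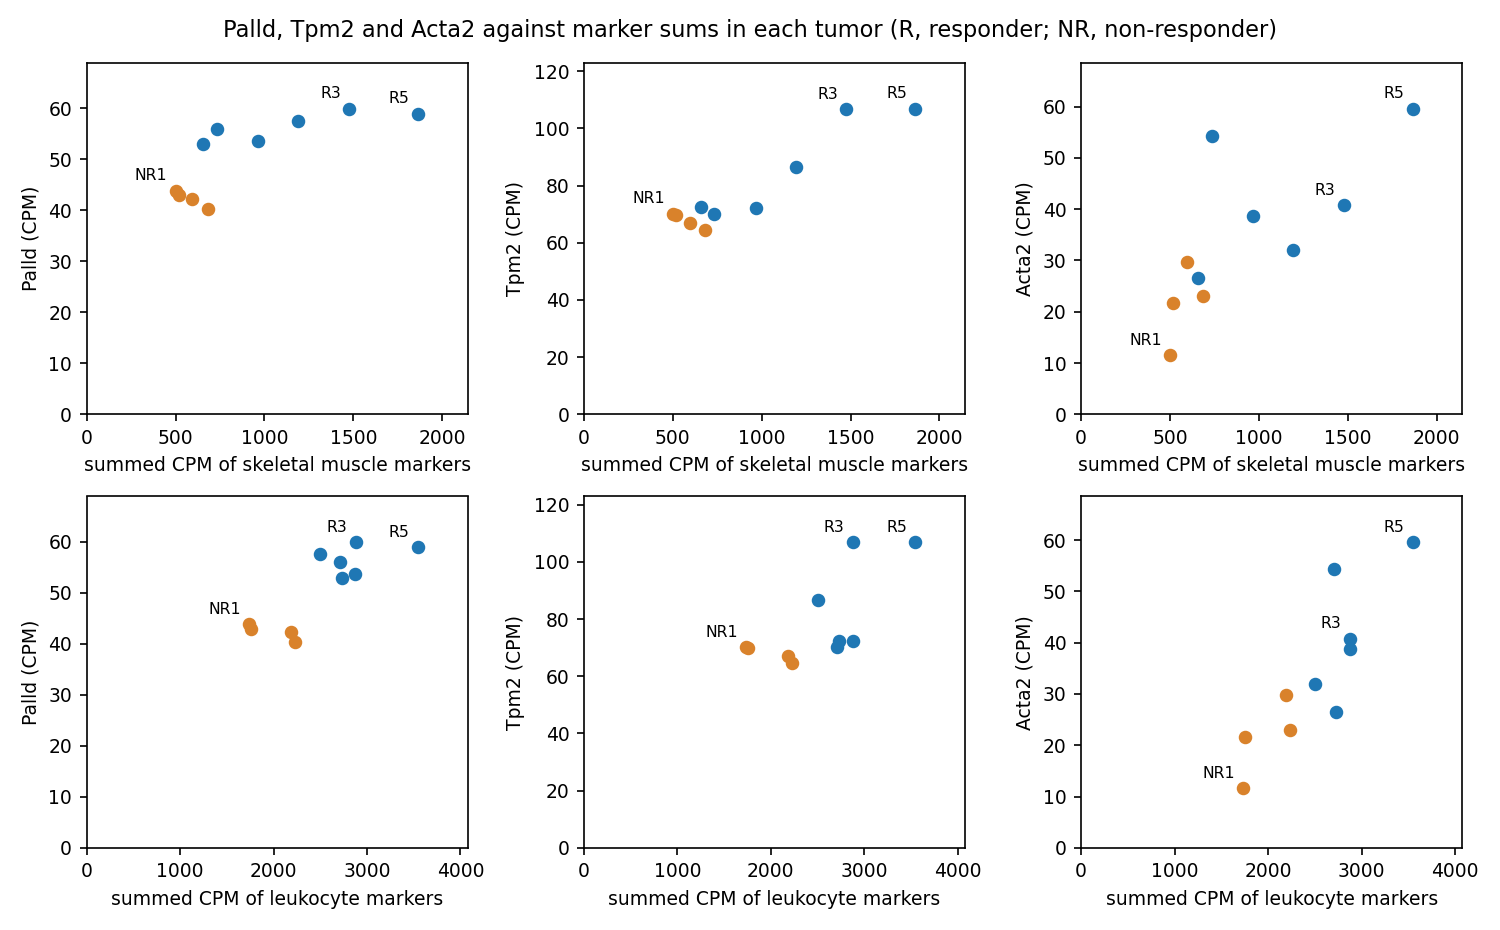
Palld, Tpm2 and Acta2 (CPM) against the summed CPM of skeletal muscle markers (top) and leukocyte markers (bottom) in each tumor, blue for 6 responders and orange for 4 non-responders, with responders 3 and 5 and non-responder 1 named. Tpm2 is highest in responders 3 and 5, which have the highest skeletal muscle sums (1477 and 1865 CPM).

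The genes whose pattern was most like that of Palld were sought among 13725 genes with at least 1 CPM. Over the 10 tumors they were Sri (r = 0.965), a calcium-binding protein of muscle and other cells, Lrrc73 (0.965), Ftl1 (0.964), the ferritin light chain, Cxcl12 (0.955), a chemokine of stromal cells, and Gltp (0.949). After the group means were removed they were Gnai2 (0.949), a G protein subunit, Smim10l1 (0.942), Mink1 (0.931), Fbxo4 (0.926) and Arhgef1 (0.909). No gene was on both lists. For the mean of the 7 smooth muscle genes they were Hs3st3b1 (0.949), Cd164 (0.942), Mmp15 (0.935), Gnptg (0.908) and Sytl1 (0.902), and after the group means were removed Cyp11a1 (0.979), Chmp2b (0.970), Cd164 (0.957), Hs3st3b1 (0.945) and Smap2 (0.931). With 10 tumors and this many genes, values of this size are a ranking only.

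Windows from 250 bases before to 50 after the annotated start were searched for 2 motifs that contractile genes are known for, the CArG box, which SRF binds, and MCAT, which TEAD factors bind, on both strands. MCAT was searched as CATTCC. The CArG box was searched as CCWWWWWWGG, with W for A or T, and boxes with a substitution were not searched for. Sequences came from RefSeq (GRCm38.p6), which had windows for Palld (3), Acta2, Myl9, Cnn1, Tpm1, Tpm2 and Lmod1. Tagln, Actg2 and Myh11 had no entry. The only CArG box match, and the MCAT matches of the 2 genes with the largest positive fold changes, are shown with the motif in capitals, 5′ to 3′ on the strand of the gene.
Myl9, CArG box, chr2:156775283-156775332, plus strand: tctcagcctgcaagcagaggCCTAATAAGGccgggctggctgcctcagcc
Acta2, MCAT, chr19:34255494-34255539, minus strand: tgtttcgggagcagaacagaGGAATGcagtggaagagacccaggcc
Palld, MCAT, chr8:61760151-61760196, minus strand: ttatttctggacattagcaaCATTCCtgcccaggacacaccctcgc
Of the 7 genes with a window only Myl9 held a CArG box of this strict form. It was held by 1.63% of all 32851 windows and 1.81% of all genes with a window. Whether the other genes hold a box with a substitution was not tested. MCAT was found in Palld (1 of its 3 windows), Acta2, Tpm1 and Lmod1. It was in 14.7% of all windows and in 16.6% of all genes with a window. These are matches of letters, not measured binding, and the genes that held a match differed in their fold changes, from -0.40 in Myl9 to 0.97 in Acta2.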

How the data were processed

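RNA from 10 resected CT26 tumors was sequenced as polyA libraries (paired-end). After quality control with FastQC, the authors ran Kallisto to estimate transcript abundance and collapsed transcripts to genes by tximport, against mm10 (GRCm38). The authors deposited the resulting estimated counts per gene (expected counts), for 36009 genes, unscaled and with a fraction in 44.8% of values. Which annotation release, tximport scaling and strand setting were used is not given in the sources used here. Pseudoalignment divides reads between transcripts that share sequence. Of the rows, 9633 had no gene name, and 35991 identifiers matched GENCODE M21, which gave coordinates and exon lengths. Those rows stayed in the library sizes and the fit.

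Groups came from the response given in the labels. Tumors were numbered in accession order, so numbers pair nothing between groups. No batch was given in the labels, and the study ran this experiment once. Each tumor came from its own mouse as far as the labels tell. On that ground each was counted as a sample. The counts of any 2 tumors of a group differed beyond counting error (chi-square of at least 10.7 per degree of freedom). That difference cannot tell separate mice from separate pieces of the same tumor.

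After rounding, counts went into edgeR 4.0.16 (R 4.3.3): filterByExpr (minimum count 10, minimum total 15), which kept 16041 genes, TMM normalization, the two-sided quasi-likelihood test and Benjamini-Hochberg adjustment over all genes fitted, at a threshold of 0.05. The method was tested on simulated data first. For log2 CPM the prior count was 2. The alternatives were RLE size factors, DESeq2 1.42.0, no filter, at least 1 CPM in 4 tumors, and leaving out each tumor, and for correlations also a prior count of 0.5. Floors of 3 counts cover counting error only.

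The genes and lists were chosen with earlier results of these data known. Named from each pathway list were the genes past the threshold and the 3 most abundant, and, for likeness, the 5 genes with the highest r. Of the marker lists, the genes named were chosen after their values were seen.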

Additional observations from a re-analysis of the deposited data

Results flagged for a closer look

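Within each group, the highest and lowest tumor were compared with the rest by the ratio of their gap to the range of the group (Dixon's criterion at 95%), for the 10 genes and the summed lists, 42 groups of values in all. Chance alone passes about 1 in 20, or 2.1 of 42, and 3 passed. Myh11 in non-responder 4 was 6.39 CPM, where the nearest of the other 3 non-responders was at 3.58 (ratio 0.859). The same tumor was also the highest for Tagln, Myl9 and Actg2. The summed nonmuscle actin and myosin genes in responder 6 were 10078 CPM, with the nearest responder at 10934 (ratio 0.643). The summed leukocyte markers in responder 5 were 3547 CPM, with the nearest responder at 2877 (ratio 0.641), and this tumor also had the highest Acta2.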

How the results depend on the processing

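Palld had a log2 fold change of 0.39 to 0.44 and was past the threshold in 13 of 14 alternatives, all but the one without non-responder 4. Acta2 ran from 0.77 to 1.16 and passed in 3, namely DESeq2, the filter of at least 1 CPM in 4 tumors, and without responder 4. Tpm2 ran from 0.27 to 0.39 and passed in none of 14. The sign of Tagln held in 10 of 14 alternatives, and those of Tpm1 and Myh11 in 13 of 14. DESeq2 called 2602 genes against 1293, 17 listed pathway genes against 9, and 2 of the 10 genes; the filter of at least 1 CPM also called 2 of the 10. Leaving out single tumors gave 0 to 1897 genes, 0 to 2 of the 10 genes and 0 to 10 pathway genes. For all genes it gave 0 without non-responder 4 (4106 at an unadjusted p under 0.05), 16 without non-responder 1, 17 without responder 3, 244 without responder 2, 366 without non-responder 3, 412 without responder 5, 553 without responder 1 and 735 without responder 6. More genes than the 1293 of the main fit were called without responder 4 (1619) and without non-responder 2 (1897). Each of these fits had a smaller number of tumors, and the causes of the differences were not tested. RLE size factors called 1287 genes and no filter 931. The r of Palld with the smooth muscle mean was 0.45, and ran from 0.32 to 0.69 without single tumors. It was 0.46 with the 5 genes of that mean that passed the filter and 0.26 without Acta2, 2 choices made after seeing the data. With the longest transcript as the length, levels rose to 172 for Tpm1, 36.2 for Tpm2, 8.01 for Palld and 2.71 CPM per kb for Tagln. No paired analysis was possible because the tumors carry no number shared between groups. Depth limits Cnn1, Actg2 and Lmod1, which had at most 36 counts in a tumor.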
